A study of Mus musculus with 6 samples.

Results

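The activin family was followed in lung endothelial cells (ECs) by all probe sets that the array annotation assigned to one family gene alone. This gave 18 probe sets for 9 genes out of 45037 tested probe sets and 18193 genes. The genes were those of the ligand subunits Inhbb, Inhba and Inha, the ligand-binding inhibitors Fst and Fstl3, the type I receptors Acvr1 and Acvr1b and the type II receptors Acvr2a and Acvr2b. Another probe set, shared by Acvr2a and Orc4, was left out.

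ECs came from clodronate-liposome-treated mice (3 arrays) and PBS-liposome-treated mice (3 arrays), and the comparison asked what macrophage depletion changed in metastasis-associated ECs. All mice were of the NSG strain, which has no lymphocytes of the T, B or natural killer lineage but keeps macrophages, and were 6 to 8 weeks old at tumor cell injection. They were female, as the methods state. Mice of both groups carried lung metastases of the human breast cancer cells MDA-MB-231-LM2, a derivative with a high capacity to colonize lung, which had been injected through the tail vein. Clodronate, which kills the phagocytes that take up the liposomes, or PBS was given in liposomes on days 14, 16 and 18, and lungs were taken on day 20. ECs were sorted by CD31, after exclusion of leukocytes (CD45, CD11b), epithelial cells (EpCAM), fibroblasts and mural cells (CD140a, CD140b) and GFP-labeled cancer cells. The arrays did not include healthy lung, and the labels do not say how many mice each array represents.

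Activins are dimers of beta subunits and belong to the TGF-beta family. A homodimer of the Inhbb product is activin B, one of the Inhba product is activin A, and a beta chain joined to the Inha chain forms an inhibin, which opposes activin. Activins bind the type II receptors, which then activate a type I receptor and through it the transcription factors SMAD2 and SMAD3, while follistatin (Fst) and follistatin-like 3 (Fstl3) bind activins and keep them from their receptors. Inhbb is also one of 4 secreted niche genes of metastasis-associated ECs that the study followed, with Lama1, Scgb3a1 and Tnfrsf11b.

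No family gene passed the threshold of the comparison. Of the 18 probe sets, 0 had an adjusted p under 0.05 by limma, against 0.306% of all probe sets, and 1 had an unadjusted p under 0.05 (5.56%), against 10.8% of all probe sets. Inhbb had the lowest difference of the 18 probe sets and Inha the highest. Differences are clodronate-liposome minus PBS-liposome on the log2 scale, and adjusted p values are from limma over all probe sets unless stated otherwise. In 2 of the 18 probe sets (11.1%) every clodronate-liposome array lay below every PBS-liposome array, against 8.04% of all probe sets, and in 0 of the 18 every clodronate-liposome array lay above, against 7.97%. The median of the 18 differences was -0.035, with 11 below and 7 above 0, and the median of all probe sets was -0.00014.

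The sorted cells carried high signals of EC genes. The 8 endothelial markers ranked from the 94.0th to the 99.9th percentile of signal, and their summed log2 signals were 104.3 to 105.9 in clodronate-liposome and 104.4 to 105.2 in PBS-liposome arrays. Genes on the Y chromosome, which female mice lack, gave an idea of the signal of absent transcripts. Their 3 probe sets read between 6.07 and 6.93. Hybridization controls, transcripts added before hybridization, averaged 11.91 and 11.94 on clodronate-liposome replicates 1 and 3, against 12.20 on replicate 2 and 12.11 to 12.24 on PBS-liposome arrays. The mean over the 18S ribosomal RNA controls was 13.01, 12.33 and 13.00 on clodronate-liposome replicates 1, 2 and 3 and 12.39 to 12.63 on PBS-liposome arrays.

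Inhbb, the subunit of activin B, had 2 probe sets. Its brighter one (1426858_at) read 11.41, 13.02 and 12.64 in clodronate-liposome replicates 1, 2 and 3 and 13.22, 12.80 and 13.27 in PBS-liposome replicates 1, 2 and 3. Clodronate-liposome replicate 1 was far below the other 5 arrays, and replicate 2 lay between the PBS-liposome values, so the groups overlapped. The mean was 12.35 ± 0.84 in clodronate-liposome and 13.10 ± 0.26 in PBS-liposome arrays (SD, n = 3 each). The difference of -0.74 (SE 0.37, 95% confidence interval -1.60 to 0.12), a 1.67-fold lower signal, did not pass (adjusted p = 0.534). In these bulk samples fewer cells of one type and less RNA per cell cannot be told apart.

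The second probe set of Inhbb (1426859_at) read 8.73, 9.75 and 9.85 in clodronate-liposome replicates 1, 2 and 3 and 10.34, 9.44 and 10.71 in PBS-liposome replicates 1, 2 and 3. Again clodronate-liposome replicate 1 was the lowest array, and PBS-liposome replicate 2 lay below the other 2 clodronate-liposome arrays. The difference was -0.72 (SE 0.38, 95% confidence interval -1.60 to 0.16, adjusted p = 0.561). Both probe sets thus had a similar difference and a similar order of the lowest array, without passing.

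**Figure D1:**
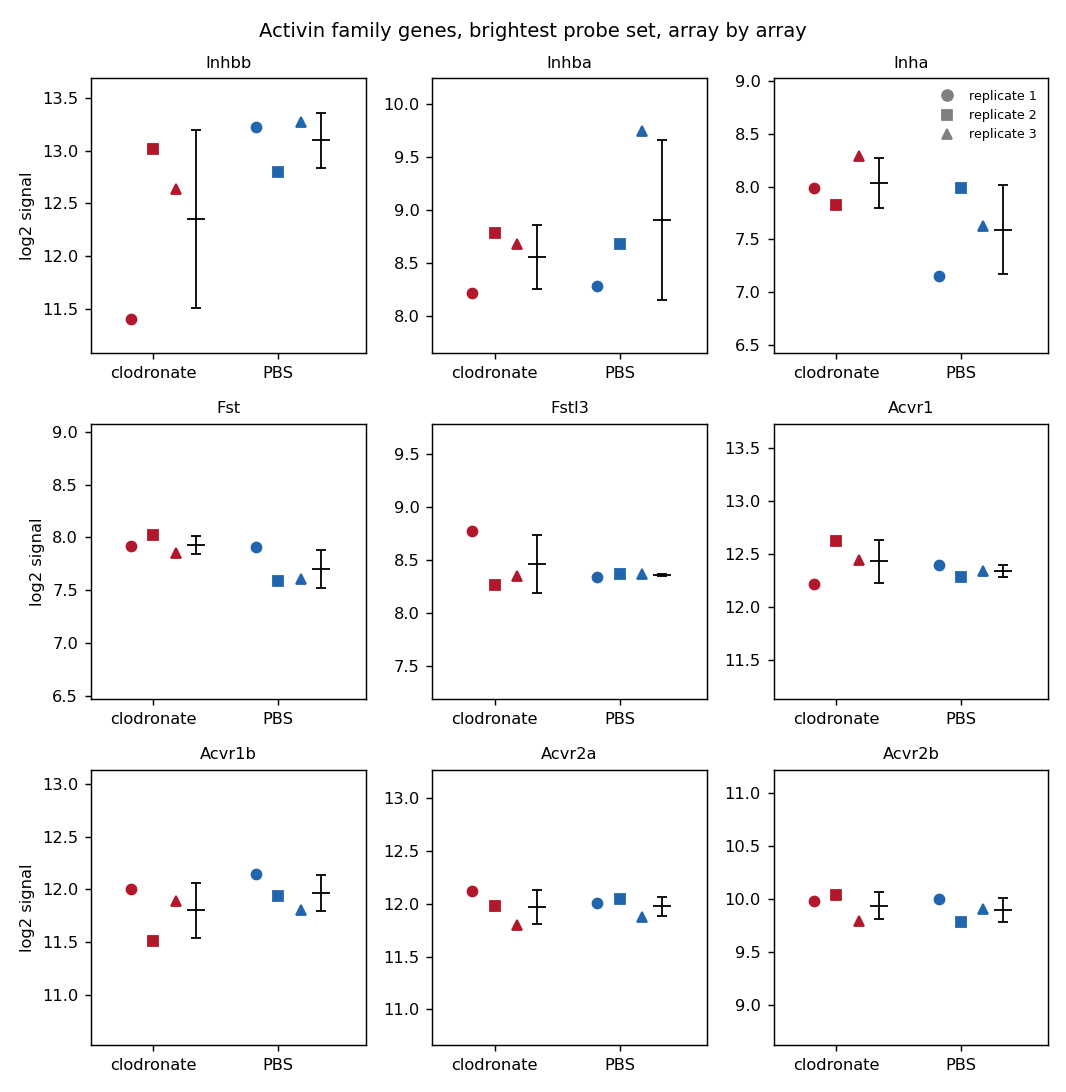
Log2 signal (vertical axes, all spanning an equal range) of the 9 family genes by their brightest probe set, on 3 clodronate-liposome arrays (red) and 3 PBS-liposome arrays (blue), with marker shapes for replicate numbers and black marks for the mean ± SD. Groups overlap in every panel, and for Inhbb clodronate-liposome replicate 1 lies at 11.41 while the other 5 arrays lie between 12.64 and 13.27.

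The size of the Inhbb difference rested largely on 1 array. Without clodronate-liposome replicate 1 it was -0.27 (SE 0.19) by the brighter and -0.36 (SE 0.34) by the dimmer probe set, and without clodronate-liposome replicate 2 it was -1.07 (SE 0.35) and -0.88 (SE 0.44). Neither passed (adjusted p = 0.715 and 0.802 without replicate 1, 0.274 and 0.474 without replicate 2). With the hybridization controls as a covariate the difference was -0.37 (SE 0.43) and -0.69 (SE 0.51). The sign was negative in all settings run for either probe set. Clodronate-liposome replicate 1 also had the lowest mean log2 signal of the 6 pan-leukocyte markers (7.58, with 7.81 and 7.71 in clodronate-liposome replicates 2 and 3 and 7.86 to 8.31 in PBS-liposome arrays). Of the 6 epithelial markers, Sftpc and Scgb1a1, which were chosen after their values were seen, were opposite on this array. Sftpc, the surfactant protein C gene of alveolar cells, read 8.49, 12.78 and 11.47 in clodronate-liposome replicates 1, 2 and 3 and 11.38, 10.14 and 11.35 in PBS-liposome replicates 1, 2 and 3. Scgb1a1, the club cell secretory protein gene, read 11.28, 7.53 and 7.89 in clodronate-liposome replicates 1, 2 and 3 and 10.37, 10.06 and 8.76 in PBS-liposome replicates 1, 2 and 3. The 6 epithelial markers together summed to 48.7 to 49.7 in clodronate-liposome and 48.9 to 50.8 in PBS-liposome arrays. The part of these signals in the Inhbb difference was not tested.

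**Figure D2:**
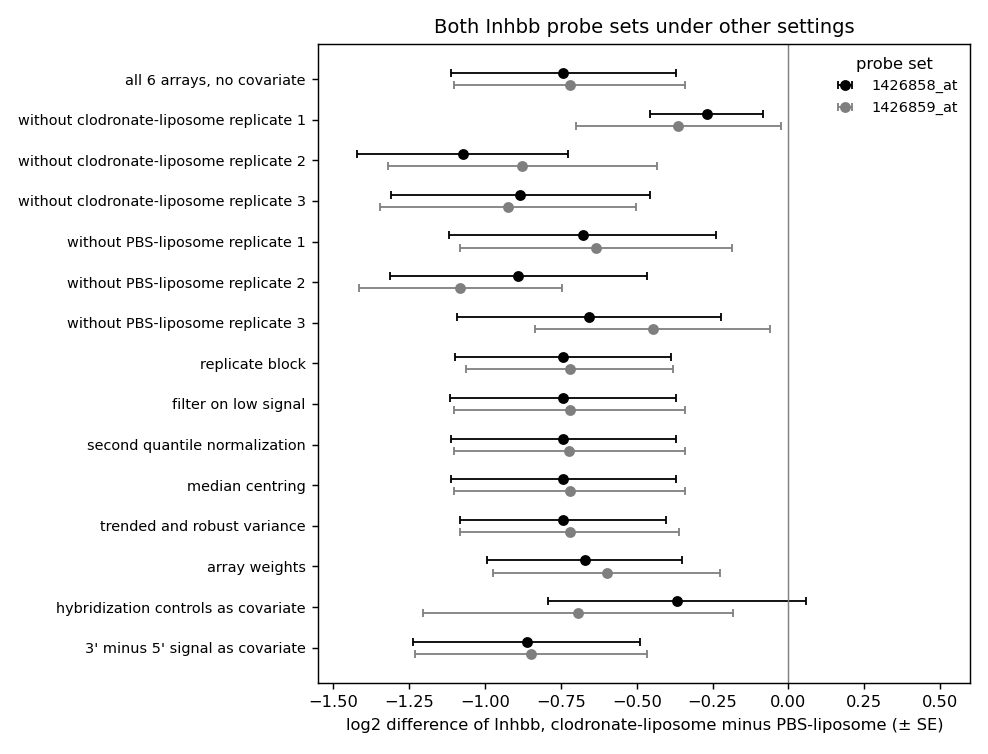
Log2 difference of Inhbb (horizontal axis, clodronate-liposome minus PBS-liposome, bars ± SE) for its brighter (black) and dimmer (grey) probe set in the fit of all 6 arrays and under 14 other settings. All points lie below 0, and leaving out clodronate-liposome replicate 1 moves the brighter probe set to -0.27.

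The other 3 niche genes were separated between groups on these arrays, lower in clodronate-liposome, where Inhbb was not. Of all probe sets, 8.04% were separated in that direction and 0.306% passed the threshold in either direction. Lama1, a laminin chain, read 8.65, 8.77 and 8.95 in clodronate-liposome replicates 1, 2 and 3 and 10.12, 9.61 and 9.96 in PBS-liposome replicates 1, 2 and 3, and it was the 1 niche gene past the threshold (difference -1.10, SE 0.15, adjusted p = 0.0355). The Lama1 call was lost whichever array was left out (difference -1.24 to -0.99, adjusted p 0.0773 to 0.145). Scgb3a1, a secretoglobin, and Tnfrsf11b, which encodes osteoprotegerin, differed by -1.23 (SE 0.36, adjusted p = 0.247) and -1.24 (SE 0.21, adjusted p = 0.0716). Relative to the mean of these 3 genes on the same array, Inhbb was higher by 0.45 in clodronate-liposome arrays, with a two-sided exact permutation p of 0.3 in a design that cannot go below 0.1 and so could not pass. The order of the arrays was shared in part, since Lama1, Scgb3a1 and Tnfrsf11b were also lowest in clodronate-liposome replicate 1. Scgb3a1 read 9.67 there, against 11.30 and 10.66 in clodronate-liposome replicates 2 and 3 and 11.56 to 11.95 in PBS-liposome arrays. Tnfrsf11b read 9.66, 10.36 and 9.82 in clodronate-liposome and 10.87, 11.41 and 11.28 in PBS-liposome replicates 1, 2 and 3.

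Inhba, whose product forms activin A and which stimulated macrophages also make, had 2 probe sets. The brighter one read 8.22, 8.78 and 8.68 in clodronate-liposome replicates 1, 2 and 3 and 8.28, 8.68 and 9.75 in PBS-liposome replicates 1, 2 and 3. A single array, PBS-liposome replicate 3, stood above the other 5. The difference was -0.34 (SE 0.35, 95% confidence interval -1.14 to 0.45, adjusted p = 0.803), and 0.078 (SE 0.21) without that array. PBS-liposome replicate 3 also had the highest mean log2 signal of the pan-leukocyte markers (8.31) and of the 8 macrophage markers (9.41, with 8.86 to 9.14 in clodronate-liposome arrays and 9.08 and 9.11 in the other 2 PBS-liposome arrays). The macrophage list summed to 70.9 to 73.1 in clodronate-liposome and 72.7 to 75.3 in PBS-liposome arrays, and the pan-leukocyte list to 45.5 to 46.9 and 47.2 to 49.9. None of the 14 markers passed over all probe sets, and 5 of them had an unadjusted p under 0.05, all lower, against 5.49% of all genes. These were Cybb (-1.06, SE 0.19), a subunit of the phagocyte oxidase, Csf1r (-0.65, SE 0.12), the receptor for macrophage colony-stimulating factor, and the pan-leukocyte genes Itgb2 (-0.61, SE 0.16), Ptprc (-0.58, SE 0.16) and Coro1a (-0.41, SE 0.13). The macrophage list was mixed, with 5 markers lower, 3 higher and a median of -0.050. Its Fcgr1 differed by 0.32 (SE 0.21), Mertk by 0.073 (SE 0.13), Mrc1 by 0.047 (SE 0.15), Lyz2 by -0.026 (SE 0.29) and Adgre1 by -0.17 (SE 0.21). All 6 pan-leukocyte markers were lower, with a median of -0.33. The part of these cells in the Inhba signal was not tested.

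The dimmer Inhba probe set (1458291_at) was 1 of the 2 with separated groups. It read 7.06, 6.93 and 7.15 in clodronate-liposome replicates 1, 2 and 3 and 7.26, 7.37 and 7.31 in PBS-liposome replicates 1, 2 and 3. The difference of -0.27 (SE 0.099) had the smallest p of all family probe sets (0.0284 in limma unadjusted) and did not pass after adjustment (adjusted p = 0.382). Its values lay at the upper end of the Y-linked signals or just above them.

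Inha, the inhibin alpha chain gene, was the family member with the highest positive difference. Its 1 probe set read 7.99, 7.83 and 8.29 in clodronate-liposome replicates 1, 2 and 3 and 7.16, 7.99 and 7.63 in PBS-liposome replicates 1, 2 and 3. Only PBS-liposome replicate 2 reached the clodronate-liposome range. The probe set ranked at the 44.55th percentile of signal, below the median of all probe sets. The mean was 8.03 ± 0.24 in clodronate-liposome and 7.59 ± 0.42 in PBS-liposome arrays (SD, n = 3 each), a difference of 0.44 (SE 0.22, 95% confidence interval -0.055 to 0.94) that did not pass (adjusted p = 0.524). With 1 array left out it ranged from 0.22, without PBS-liposome replicate 1, to 0.64, without PBS-liposome replicate 2.

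The log2 ratio of Inhbb to Inha is given as a description. Its permutation p was computed but is not read as a test. These genes were set side by side for having the lowest and the highest difference of the family. Relative to the PBS-liposome mean, the log2 ratio of Inhbb to Inha was -2.08, -0.31 and -1.16 in clodronate-liposome replicates 1, 2 and 3 and 0.56, -0.70 and 0.13 in PBS-liposome replicates 1, 2 and 3. The groups overlapped, because PBS-liposome replicate 2 lay below clodronate-liposome replicate 2. The ratio differed by -1.18, and by -0.74 without clodronate-liposome replicate 1. The log2 ratio of Inhbb to the mean of the other 8 genes differed by -0.79, and by -0.31 without clodronate-liposome replicate 1. The two-sided exact permutation p was 0.2, in a design of 3 against 3 arrays that cannot go below 0.1, so this test could not separate Inhbb from its family.

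The follistatins gave small positive differences by their brightest probe sets. Fst read 7.92, 8.02 and 7.85 in clodronate-liposome replicates 1, 2 and 3 and 7.91, 7.59 and 7.61 in PBS-liposome replicates 1, 2 and 3. One PBS-liposome array, replicate 1, lay within the clodronate-liposome range. This Fst probe set ranked at the 44.59th percentile of signal, below the median of all probe sets. The difference was 0.22 (SE 0.12, adjusted p = 0.564), while the second Fst probe set, which overlapped the signal of the Y-linked genes, differed by -0.018 (SE 0.20, adjusted p = 0.989).

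Fstl3, a secreted antagonist related to follistatin, read 8.78, 8.27 and 8.35 in clodronate-liposome replicates 1, 2 and 3. In PBS-liposome replicates 1, 2 and 3 it read 8.34, 8.37 and 8.37, the tightest PBS-liposome group of the family (SD 0.013, n = 3). Clodronate-liposome replicate 1, the array with the lowest Inhbb, was the highest here. The difference was 0.11 (SE 0.14, adjusted p = 0.862), and -0.049 without that array.

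The receptors differed little between groups. All 10 receptor probe sets lay between -0.25 and 0.16, with adjusted p between 0.619 and 0.990, and their 95% confidence intervals together spanned -0.61 to 0.51. Changes beyond 1.52-fold lower or 1.42-fold higher were outside all 10 intervals, and the intervals of single probe sets were narrower, from -0.27 to 0.26 for the brighter one of Acvr2a.

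Of the type I receptors, Acvr1b (ALK4) is the usual partner for activin A and activin B. Its brighter probe set read 12.00, 11.51 and 11.89 in clodronate-liposome replicates 1, 2 and 3 and 12.15, 11.94 and 11.81 in PBS-liposome replicates 1, 2 and 3, a difference of -0.16 (SE 0.15, adjusted p = 0.783). Clodronate-liposome replicate 2 was the lowest array and the groups overlapped. Its dimmer probe set was the second of the family with separated groups, with 8.96, 8.55 and 8.83 in clodronate-liposome and 9.04, 8.96 and 8.96 in PBS-liposome replicates 1, 2 and 3. The gap between the groups was narrow and the difference of -0.21 (SE 0.12, adjusted p = 0.619) did not pass. Acvr1 (ALK2), better known as a receptor for bone morphogenetic proteins, read 12.22, 12.63 and 12.45 in clodronate-liposome and 12.40, 12.28 and 12.34 in PBS-liposome replicates 1, 2 and 3. The difference was 0.092 (SE 0.12, adjusted p = 0.862), and its other probe sets differed by 0.16 (SE 0.11) and -0.052 (SE 0.13).

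The type II receptors are shared by activins and several other ligands of the TGF-beta family. Acvr2a read 12.12, 11.98 and 11.80 in clodronate-liposome and 12.01, 12.05 and 11.88 in PBS-liposome replicates 1, 2 and 3, a difference of -0.0097 (SE 0.11, adjusted p = 0.990). This was the difference closest to 0 in the family, and the second probe set differed by -0.13 (SE 0.15). Acvr2b read 9.98, 10.04 and 9.80 in clodronate-liposome and 10.003, 9.78 and 9.90 in PBS-liposome replicates 1, 2 and 3, a difference of 0.042 (SE 0.11, adjusted p = 0.939). Its 2 dimmer probe sets differed in opposite directions, by -0.25 (SE 0.15) and 0.13 (SE 0.16), so that no direction could be given for this gene.

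**Figure D3:**
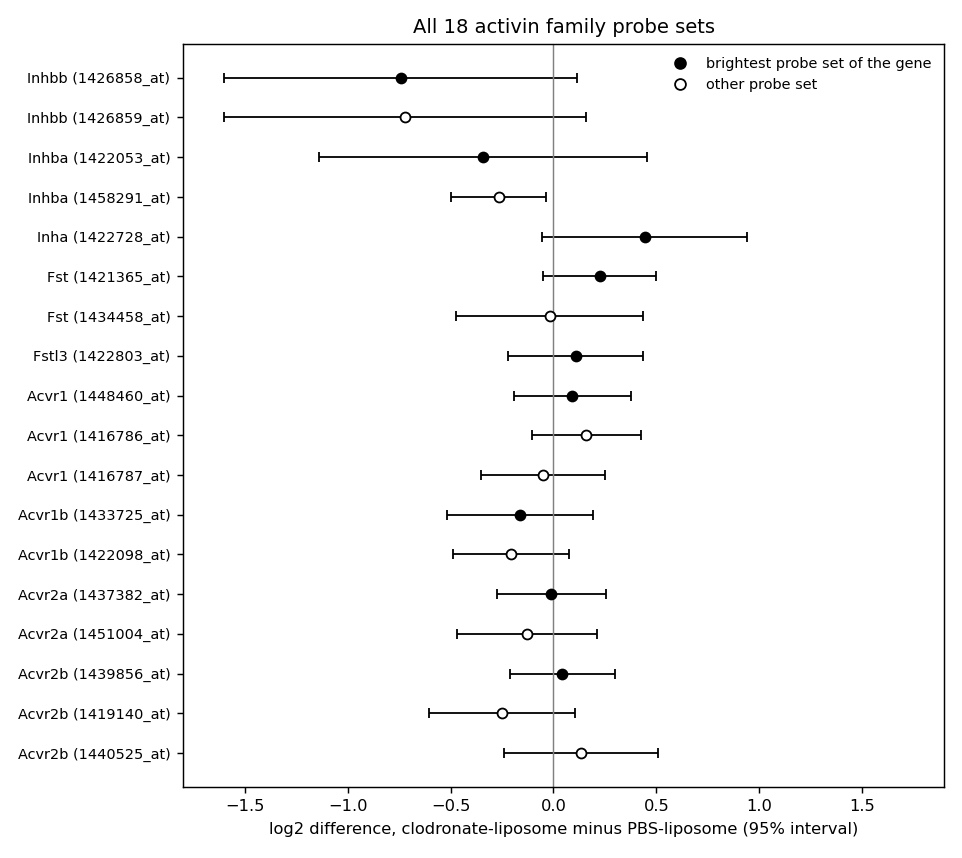
Log2 difference (horizontal axis, clodronate-liposome minus PBS-liposome) of the 18 family probe sets with 95% confidence intervals from limma, filled for the brightest probe set of each gene and open for the others. Both Inhbb probe sets lie near -0.7 with wide intervals, Inha lies at 0.44, and the 10 receptor probe sets lie between -0.25 and 0.16.

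The rest of the activin and nodal branch, from other ligands to receptors, SMADs and their regulators, was read beside the family. Of 20 listed genes 19 were measured, of which 0 passed by limma in either direction. Of these 19 genes 0 had an unadjusted p under 0.05, against 5.49% of all genes lower and 4.54% higher. Their differences ran from -0.17 to 0.15 with a median of 0.038, against -0.0031 over all genes by their brightest probe sets. The smallest p values belonged to Acvr1c, the type I receptor ALK7 (0.14, SE 0.10), Smurf1, a ubiquitin ligase that targets receptors and SMADs (-0.16, SE 0.12), and Inhbe, a further activin beta subunit (-0.17, SE 0.13). Acvr1c and Inhbe read 6.46 to 6.93, within the signals of the Y-linked genes. The SMADs that carry the activin signal differed by 0.034 (SE 0.091) for Smad2, -0.093 (SE 0.095) for Smad3 and 0.038 (SE 0.097) for the shared partner Smad4. Tgfbr3, the inhibin co-receptor betaglycan, differed by 0.047 (SE 0.11), and Furin, a protease that cleaves TGF-beta family precursors, by -0.052 (SE 0.10).

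Genes that SMAD2 and SMAD3 are known to induce were examined next, with 9 measured of 11 listed symbols, of which Ctgf is the older symbol of Ccn2. None passed over all probe sets in either direction, 1 was lower and 1 higher at an unadjusted p under 0.05, against 5.49% of all genes lower and 4.54% higher, and the median was 0.071. Bhlhe40, a transcription repressor that many stimuli induce, read 11.74, 12.62 and 12.35 in clodronate-liposome and 12.97, 13.16 and 13.16 in PBS-liposome replicates 1, 2 and 3. All clodronate-liposome arrays lay below the PBS-liposome ones, and the difference of -0.86 (SE 0.21) did not pass (adjusted p = 0.175). Ccn2, the connective tissue growth factor gene, lay higher on every clodronate-liposome array, with 13.26, 13.44 and 13.13 in clodronate-liposome and 12.73, 13.00 and 12.95 in PBS-liposome replicates 1, 2 and 3 (difference 0.38, SE 0.12, adjusted p = 0.291). Timp3, a tissue inhibitor of metalloproteinases, differed by 0.15 (SE 0.10, adjusted p = 0.687), and the feedback inhibitor Smad7 by 0.13 (SE 0.16).

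The study's activin B signature, 20 genes induced by activin B in human breast cancer cells, was read in these ECs through the mouse genes of the same symbol. It was not chosen on these arrays. All 20 were measured, 0 passed by limma in either direction, 2 were lower and 1 higher at an unadjusted p under 0.05, against 5.49% and 4.54% of all genes, and the median was 0.068. Dusp2, a phosphatase that inactivates MAP kinases, read 8.75, 9.18 and 8.87 in clodronate-liposome and 9.41, 9.53 and 9.87 in PBS-liposome replicates 1, 2 and 3 (difference -0.67, SE 0.16, adjusted p = 0.172). Limch1, an actin-associated protein gene, lay higher on all clodronate-liposome arrays (difference 0.32, SE 0.12, adjusted p = 0.384), and Errfi1, a feedback inhibitor of the EGF receptor, lower (difference -0.25, SE 0.11, adjusted p = 0.454). The inhibitors of differentiation Id1, Id2 and Id3 differed by -0.090 (SE 0.17), 0.27 (SE 0.15) and 0.21 (SE 0.15).

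**Figure D4:**
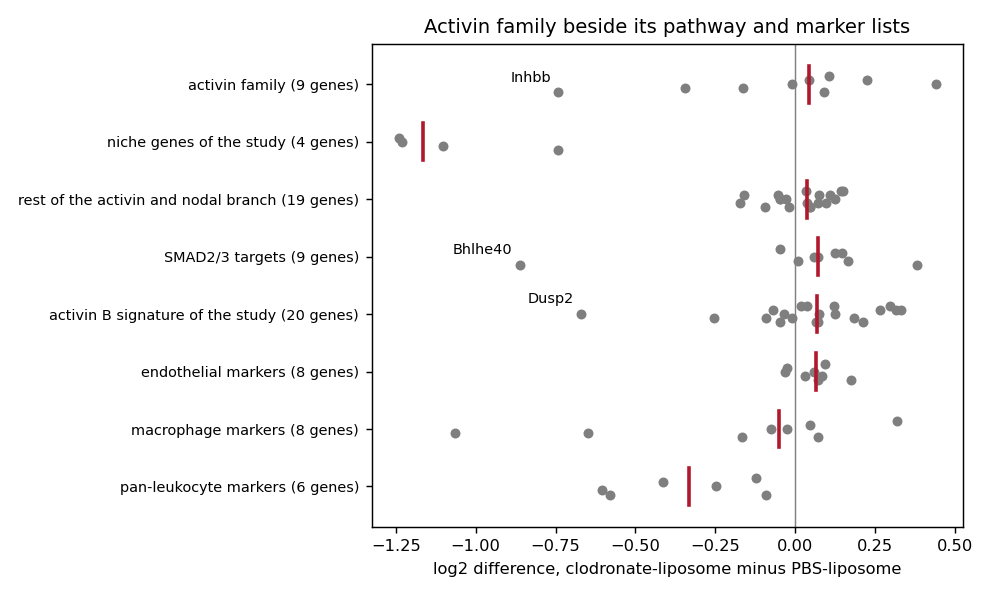
Log2 differences (horizontal axis, clodronate-liposome minus PBS-liposome) of single genes by their brightest probe set (grey dots, spread vertically for visibility), with red bars for the median of each list. The niche genes, which include Inhbb, had a median of -1.17, while the rest of the branch, SMAD2/3 targets and the activin B signature had medians of 0.038, 0.071 and 0.068. The last 3 lists share genes, with Smad7 and Skil in all of them, so their medians are not independent.

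The array-by-array pattern of Inhbb was finally compared with that of other genes. Among 10917 genes with a signal at or above the array median, Marcksl1, Helz2, Eif5b, Gpha2 and Cfl2 had the highest Pearson correlations with Inhbb over the 6 arrays, at 0.982 to 0.985. Without clodronate-liposome replicate 1 the correlations of these 5 genes were 0.879 to 0.951 over 5 arrays. The genes had been picked on all 6 arrays, these 5 included, so the values are no separate check of the likeness. Helz2, for example, read 10.53, 11.22 and 11.07 in clodronate-liposome and 11.43, 11.16 and 11.28 in PBS-liposome replicates 1, 2 and 3, with the low value on the same array as Inhbb. None of the 5 passed the threshold (adjusted p 0.547 to 0.822). The arrays share their normalization, 28 genes exceeded a correlation of 0.95, and the values are a description of 6 points.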

How the data were processed

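Per the study's methods, RNA of sorted lung ECs was hybridized to Affymetrix mouse whole-genome arrays and the scanner files were normalized by robust multiarray averaging. The deposited table held the authors' log2 signals of 45101 probe sets, used as deposited. The normalization equalizes the arrays, so a shift shared by all genes is not visible, and it was not repeated here. The 64 control probe sets were set aside. Genes were named from the platform annotation, which gave 34945 probe sets 1 symbol, 932 several and 9160 none, and each gene outside the family was read from its brightest probe set. Differences were computed with limma 3.58.1 in R 4.3.3 (lmFit, eBayes, two-sided, no covariate) and adjusted by Benjamini-Hochberg over all 45037 probe sets, following the two-group test in the methods. Within-array ratios were compared by exact permutation. The number of arrays limits precision. The limma p values set each difference against the spread between these arrays, with variances moderated over all probe sets. The family, lists and tests were chosen with earlier results of these data known. All family probe sets were described, and of each pathway list the genes past the threshold or, with none, the 3 with the smallest p. Further pathway genes were named for their role, and marker lists were given as sums with the genes that bear on a result, outside that rule. Fibroblast and mural markers summed to 64.5 to 67.1 in clodronate-liposome and 66.0 to 67.3 in PBS-liposome arrays. Mesothelial markers summed to 35.9 to 44.0 and 36.4 to 38.7, with the highest mean log2 signal (8.80) on clodronate-liposome replicate 3. The part of these signals in the family differences was not tested. Likeness to Inhbb was ranked by Pearson correlation. The fit was tested on simulated data. Alternatives were a signal filter, renormalization, other variance models, covariates, a replicate block and arrays left out. Some listed genes, Mstn and Ddx3y among them, were not analysed here.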

Additional observations from a re-analysis of the deposited data

How the results depend on the processing

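With more than 1 array in each group, no family probe set passed by limma in any setting. The filter on low signal tested 12 family probe sets and the other settings 18, of which 0 to 3 had an unadjusted p under 0.05. Inhbb kept its negative sign and missed the threshold in all 17 settings (adjusted p 0.274 to 0.949). With 1 array left out it ranged from -1.07 to -0.27, and when clodronate-liposome replicate 2 alone was set against PBS-liposome, an alternative chosen after seeing the data, it was -0.080, with the lone array assumed to vary like the others. Acvr1b also kept its sign, and so did Inha in every setting that tested it. The filter on low signal left Inha out. Inhba, Fst, Fstl3, Acvr1, Acvr2a and Acvr2b changed sign in at least 1 setting, and the cause was not tested. With 1 array left out Inhba ranged from -0.65 to 0.078, Fstl3 from -0.049 to 0.21, Acvr1 from -0.0057 to 0.20, Acvr2a from -0.088 to 0.074 and Acvr2b from -0.016 to 0.11. The most variable probe set gave -0.018 for Fst, -0.052 for Acvr1 and -0.25 for Acvr2b, and the mean of all probe sets gave -0.025 for Acvr2b. The hybridization controls as a covariate gave -0.030 for Fstl3 and 0.0043 for Acvr2a, the gap between 3' and 5' signals of Gapdh and Actb 0.024 for Acvr2a, and array weights -7.81e-05 for Acvr2b.

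Over all probe sets 138 passed. This count was 6 to 73 with 1 array left out, 244 with a filter on low signal, 248 with a trended and robust variance, 234 with array weights, 43 with the gap between 3' and 5' signals and 0 with the hybridization controls (4710 at an unadjusted p under 0.05). With the replicate number as a block 0 passed (5033 at an unadjusted p under 0.05), where the adjusted p was 0.516 for Inhbb and 0.0870 for Lama1. Lama1 also missed the threshold with the hybridization controls (adjusted p = 0.191) and with the gap between 3' and 5' signals (0.0527), settings applied to it after seeing the data, and kept its sign in all. With clodronate-liposome replicate 2 alone against PBS-liposome 0 passed (3964 at an unadjusted p under 0.05). Same-numbered arrays correlated weakly in their deviations from the group means (0.075, 0.070 and 0.036), each best with its own number, and the labels do not say that numbers mark a pairing. The list medians stayed between 0.00021 and 0.088 with 1 array left out for the rest of the branch and the SMAD2/3 targets, and the median of the branch was -0.046 by the most variable and -0.018 by the mean of all probe sets. A filter on signal left 12 of the 18 family probe sets.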
